A study of Mus musculus with 2 samples.

Results

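The intergenic H3K4me3 peaks of DMSO-treated MEL cells are the peaks that lie more than 5000 bp outside the span of every annotated gene of any biotype, on chromosomes 1 to 19 and X of the mouse genome (mm10). They were found by position alone, against 49550 genes of the RefSeq GRCm38.p6 annotation. Of the 37541 peaks in the authors' replicated set on these chromosomes, 5254 are intergenic in this sense, a share of 14% (95% Wilson interval 13.6% to 14.4%, counting error only). Of the other 32287 peaks, 18114 touched the 1000 bp on either side of a gene's 5' end. Another 7355 lay inside a gene and more than 5000 bp from any 5' end, and 6818 fell in neither class.

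MEL is a mouse erythroleukemia line, immortalized red cell precursors that start terminal erythroid maturation when exposed to dimethyl sulfoxide (DMSO). All cells here had been kept in 2% DMSO for 5 days, and chromatin fragments of 150 to 350 bp were precipitated with an antibody to H3K4me3, histone H3 trimethylated at lysine 4. There were 2 biological replicates of this 1 condition. Both carry the same label for the biological material, and nothing in the labels says that they were separate cultures, so the spread between them may be partly technical. No untreated cells were analysed here, and MEL is a single transformed line that stands in for red cell precursors only as far as it keeps their program.

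H3K4me3 is deposited by SET1 and MLL family complexes and is best known as a mark of active and poised promoters, most strongly where the DNA is rich in unmethylated CpG. Away from annotated genes it is found at promoters that no annotation lists, such as those of long noncoding RNAs and microRNA (miRNA) precursors, and, at lower levels, at strong enhancers. In red cells, many genes are known to depend on distant regulatory elements bound by GATA1, TAL1 and KLF1, of which the globin locus control region is the textbook case.

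The 4 windows of 300 bases shown here give the DNA under intergenic peaks that the results turn on, and were chosen after the values were seen. They come from an older peak set of the same study on mm9, since the reference sequence at hand was of that build (NCBIM37), and each is centred on the summit of an older peak. Each older peak lay on the same side of the same gene as an mm10 intergenic peak described below, at a distance within 1000 bp of it; no coordinate was converted between builds. Capitals mark CpG dinucleotides and the GATA motifs AGATAA and TGATAA on either strand, and all are written 5' to 3' on the plus strand.
Upstream of Ppara, under the widest intergenic domain, mm9 chr15:85497888-85498187: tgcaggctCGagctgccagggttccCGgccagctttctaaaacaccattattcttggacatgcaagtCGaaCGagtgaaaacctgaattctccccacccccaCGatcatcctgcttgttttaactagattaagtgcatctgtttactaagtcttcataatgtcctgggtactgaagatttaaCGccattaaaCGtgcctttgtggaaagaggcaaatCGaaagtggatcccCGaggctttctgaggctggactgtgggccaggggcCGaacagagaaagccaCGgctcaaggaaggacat
Upstream of Kit, under its strongest distal peak, mm9 chr5:75909004-75909303: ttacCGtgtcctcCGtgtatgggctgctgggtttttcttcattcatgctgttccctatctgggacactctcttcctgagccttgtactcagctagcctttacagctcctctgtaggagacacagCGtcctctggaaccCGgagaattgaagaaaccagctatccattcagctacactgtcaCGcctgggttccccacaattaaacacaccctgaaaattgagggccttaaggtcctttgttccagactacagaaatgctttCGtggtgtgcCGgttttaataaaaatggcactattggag
Upstream of Cd34, a blood stem cell marker, mm9 chr1:196706003-196706302: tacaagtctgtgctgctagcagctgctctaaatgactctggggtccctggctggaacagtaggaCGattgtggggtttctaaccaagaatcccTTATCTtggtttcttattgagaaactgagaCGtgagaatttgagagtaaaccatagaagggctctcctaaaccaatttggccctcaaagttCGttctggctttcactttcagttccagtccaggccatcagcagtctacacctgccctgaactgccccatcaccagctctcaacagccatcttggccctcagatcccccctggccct
Upstream of Abcc9, under the peak with the highest enrichment value, mm9 chr6:142659807-142660106: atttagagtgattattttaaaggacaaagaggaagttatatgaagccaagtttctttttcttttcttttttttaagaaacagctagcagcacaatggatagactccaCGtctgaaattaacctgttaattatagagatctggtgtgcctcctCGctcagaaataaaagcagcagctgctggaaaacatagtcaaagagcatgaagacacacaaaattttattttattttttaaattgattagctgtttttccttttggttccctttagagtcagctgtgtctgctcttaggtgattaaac
The Ppara window held 11 CpGs at a GC content of 49.3%, the Kit window 7 at 48.3%, the Cd34 window 3 at 50.3% and the Abcc9 window 2 at 34.3%. The ratio of observed to expected CpG was 0.603 in the Ppara window, 0.404 in the Kit window, 0.162 in the Cd34 window and 0.227 in the Abcc9 window. The 1 GATA motif in the 4 windows was in the Cd34 window, written there as TTATCT, the other strand of AGATAA. All 4 windows are intergenic in the GENCODE M1 annotation of that build.

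Intergenic peaks were also found near miRNA clusters, and the mature miRNAs of 4 of these are shown for the seeds that group them (RefSeq, GRCm38.p6). Capitals mark the seed, bases 2 to 8 from the 5' end, by which a miRNA pairs with its targets.
mmu-let-7a-5p: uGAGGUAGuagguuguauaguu
mmu-let-7f-5p: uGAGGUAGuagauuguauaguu
mmu-let-7b-5p: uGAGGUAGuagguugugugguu
mmu-let-7c-5p: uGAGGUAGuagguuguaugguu
mmu-miR-181c-5p: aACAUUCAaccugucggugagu
mmu-miR-181d-5p: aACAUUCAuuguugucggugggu
mmu-miR-23a-3p: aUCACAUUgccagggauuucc
mmu-miR-27a-3p: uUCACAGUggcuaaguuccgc
mmu-miR-24-3p: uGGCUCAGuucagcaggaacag
The 4 let-7 miRNAs share the seed GAGGUAG. Their hairpins considered here, let-7a-1, let-7f-1, let-7b and let-7c-2, lie in 2 separate clusters, on chromosomes 13 and 15. Both clusters have an intergenic peak nearby. miR-181c and miR-181d share the seed ACAUUCA. miR-23a, miR-27a and miR-24 have 3 different seeds, and the hairpins of miR-23a, miR-27a and miR-24-2 lie in 1 cluster on chromosome 8.

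Intergenic peaks were narrower and weaker than peaks at gene 5' ends, and had medians close to those of peaks inside genes. In the replicated set their median width was 469 bp (quartiles 289 and 765 bp), against 469 bp inside genes away from 5' ends, 1102 bp at 5' ends and 769 bp over all other peaks. Their median enrichment value, the per-peak signal that the authors' files give on a scale the sources do not state, was 4.76 (quartiles 3.67 and 7.1), against 4.49 inside genes, 10.8 at 5' ends and 7.63 over all other peaks. Counted over pairs of peaks, an intergenic peak was more often lower than higher in value than a peak at a 5' end, with a difference of the 2 shares (Cliff's delta) of -0.64. Against peaks inside genes, the same measure was 0.0837.

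The same order was present in each replicate's own peak set. Intergenic peaks made up 14.5% of 48015 peaks in replicate 1 and 15.2% of 46934 in replicate 2, a mean of 14.8% ± 0.517 (SD, n = 2). Their median width was 305 bp in replicate 1 and 280 bp in replicate 2, and their median enrichment value was 4.22 in replicate 1 and 4.16 in replicate 2. Within a replicate, the median value differed by -5.88 ± 1.11 from that at 5' ends and by 0.28 ± 0.002 from that inside genes (SD, n = 2 replicates). The difference in median width was -632 ± 117 bp from 5' ends and -0.5 ± 2.12 bp from peaks inside genes, the second smaller than its spread. With 2 replicates, an exact sign permutation test cannot give a p below 0.5 (two-sided), so these differences are given with their spread and without a p.

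**Figure D1:**
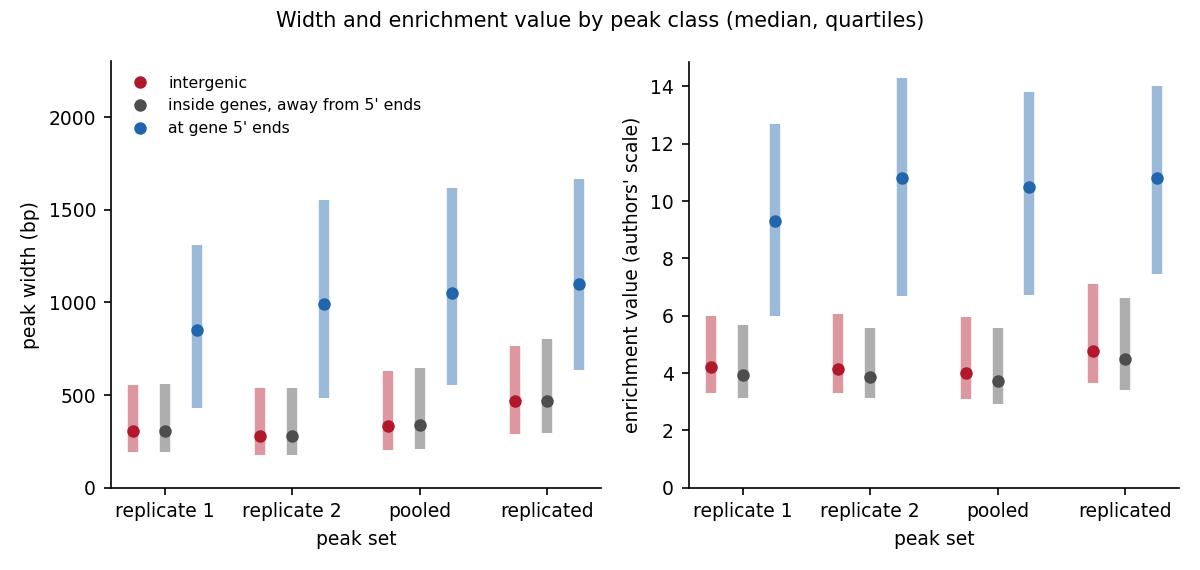
Peak width in bp (left) and the authors' enrichment value (right) in 4 peak sets, for intergenic peaks (red), peaks inside genes away from 5' ends (grey) and peaks at gene 5' ends (blue); points are medians and bars run between the quartiles. In all 4 sets the intergenic medians sit beside those of peaks inside genes and below those at 5' ends, with 4.76, 4.49 and 10.8 in the replicated set.

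A minority of intergenic peaks was as strong as a promoter. Of the 5254, 559 had an enrichment value of at least 10, or 10.6% (9.83% to 11.5%), where the share over all 37541 peaks was 32.6%. At least the median value of peaks at 5' ends was reached by 442 intergenic peaks (8.41%), at least their median width by 596 (11.3%), and both by 201 (3.83%). Only 73 were at least 2000 bp wide (1.39%, against 8.85% over all peaks), and 22 had a value of at least 20. Wider intergenic peaks had higher values, with a Spearman correlation of 0.58 across the 5254 peaks, which come from the same 2 libraries and are described without a test.

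The 10 intergenic peaks with the highest values were scattered over 9 chromosomes, and 6 of them had as nearest protein-coding gene one with an unmarked 5' end, that is, no peak of both replicates within 1000 bp of it; over all members the nearest gene was marked for 61.5%. Here and below, the replicate value is that of the strongest peak of that replicate overlapping the member, and the value in the replicated set is the one the peak has in the pooled set. The highest was 839 bp wide, on chr6:142710912-142711750 (mm10), 8146 bp upstream of Abcc9, which encodes a regulatory subunit of ATP-sensitive potassium channels. It had 24.5 in replicate 1, 19.9 in replicate 2 and 26.6 in the replicated set. A peak of 852 bp lay 9164 bp downstream of Nlgn1, a synaptic adhesion gene, with 17.4 in replicate 1, 22.9 in replicate 2 and 26.4 in the replicated set. Both genes are known for roles in excitable cells, and neither had a marked 5' end.

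Near Pirt, a gene of sensory neurons, the peak stood 103993 bp upstream, was 1644 bp wide and had 22.1 in replicate 1 and 22.0 in replicate 2, the closest match between replicates among the 10. The peak nearest to LOC115486419, 79254 bp downstream of it, had 23.4 in replicate 1 and 18.2 in replicate 2. The peak 16845 bp upstream of Fbxo27, an F-box gene of ubiquitin ligases, had 21.8 in replicate 1 and 22.8 in replicate 2. Vmn2r82, a vomeronasal receptor gene, had its peak 20120 bp downstream, with 20.6 in replicate 1 and 20.8 in replicate 2. None of these 4 genes had a marked 5' end.

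The other 4 were near genes with a marked 5' end. They were Cfl2, the cofilin of muscle (23.8 in replicate 1, 21.4 in replicate 2), Ogfrl1 (22.7 and 20.8 in the same order), Sugct, an enzyme of glutarate metabolism (21.7 and 20.3), and Mcu, the pore of the mitochondrial calcium uniporter (20.9 and 22.6). Their distances were 23143 bp downstream of Cfl2, 107979 bp downstream of Ogfrl1, 173569 bp downstream of Sugct and 18786 bp upstream of Mcu. In both replicates, all 10 of these peaks had values of at least 17.4, while the intergenic median over members was 5.02 in replicate 1 and 5.00 in replicate 2.

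The widest intergenic peaks were a different set, with lower values. The widest of all spanned 8374 bp, on chr15:85665016-85673389, 61521 bp upstream of Ppara, the nuclear receptor that drives fatty acid oxidation genes. It had 15.5 in replicate 1, 11.0 in replicate 2 and 14.2 in the replicated set. It ended 33214 bp before the hairpin of let-7c-2, which is followed by that of let-7b, and the nearest annotated gene was a long noncoding RNA, D130051D11Rik, 24492 bp away. The older mm9 set also had a wide peak there, of 9002 bp, 61017 bp upstream of Ppara, and gave it a −log10 p of 300, the highest that file holds.

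The next widest was a peak of 4817 bp, 8259 bp upstream of Clstn3, a calsyntenin gene, with 12.8 in replicate 1 and 12.3 in replicate 2. Peaks of 4208 bp and 4103 bp followed, 67475 bp upstream of Zfp217, a zinc-finger gene, and 28934 bp downstream of Slc28a3, a nucleoside transporter gene. Others of the 10 were nearest to Smoc1 (3631 bp), Zeb2 (3373 bp), Asph (3166 bp), Cd24a (3051 bp) and Commd3 (2952 bp). Zeb2 encodes a zinc-finger repressor and Cd24a a surface glycoprotein that red cell precursors carry. Of the 10 nearest genes, 8 had a marked 5' end, where 61.5% of all members had such a nearest gene; Slc28a3 and Smoc1 did not. Values in the replicated set ranged between 4.41 at Asph and 16.2 at Smoc1, all below those of the 10 strongest.

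Most intergenic peaks overlapped peaks of both replicates. The replicated set was itself derived from both replicates' peaks, so this overlap was partly fixed in advance. Agreement of values is described only for peaks in that set. Of the 5254, 4695 (89.4%) overlapped a peak of each replicate by at least 1 bp, 225 overlapped one of replicate 1 only, 325 one of replicate 2 only, and 9 neither. Among the other peaks of the replicated set 93.6% overlapped both, and among those inside genes 89%. Over the 4695, the values of replicate 1 relative to those of replicate 2 centred on a log2 ratio of 0.01 (median; SD 0.46), and the Pearson correlation of log2 values was 0.76. A ratio beyond 2-fold was found for 151 of them, 3.22%, where the share over all peaks present in both replicates was 4.82%. One of the farthest apart was a member near Etaa1, with 21.6 in replicate 1 and 3.9 in replicate 2; its neighbour 62 bp away also had 21.6 in replicate 1, the value of the strongest peak overlapping it.

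**Figure D2:**
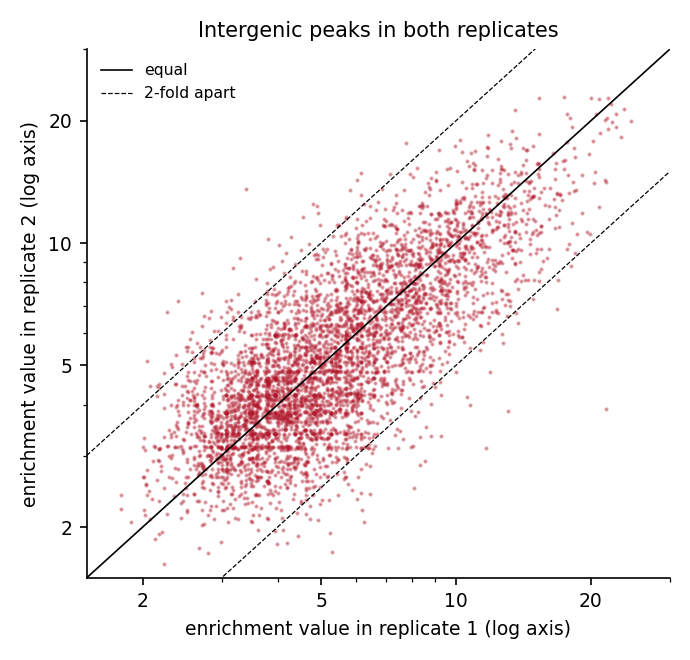
Enrichment value of each of the 4695 intergenic peaks found in both replicates, replicate 1 on the x axis and replicate 2 on the y axis, both log axes; the solid line is equality and the dashed lines are 2-fold apart. The cloud follows the line of equality, with 151 peaks outside the dashed lines.

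A smaller share of intergenic peaks than of other peaks passed the authors' replication step, with similar shares at like strength. Of 7254 intergenic peaks in the authors' pooled set, 5254 stood at the same position in the replicated set, 72.4% (71.4% to 73.4%), against 83.5% of all other peaks and 72.6% of those inside genes; over all pooled peaks the share was 81.7%. Pooled peaks were divided into 5 equal parts by −log10 p. In the lowest, 26.3% of intergenic and 28.2% of other peaks were kept. In the next the shares were 82.2% and 81.4%, and in the third 99.6% and 99.4%, intergenic first. The lowest part held 30.2% of intergenic peaks and the highest 2.5%, against 18.1% and 23.3% of other peaks. The 2000 intergenic peaks not kept had a median width of 177 bp and a median value of 2.89, where the kept ones had 469 bp and 4.76.

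Intergenic peaks were denser near genes but not stronger there. Space 5000 to 10000 bp from the nearest gene held 10.4 peak summits per Mb, space 10000 to 20000 bp away 7.78, space 20000 to 50000 bp away 4.09, space 50000 to 100000 bp away 2.18, and space farther out 1.43. Over the same 5 steps the median enrichment value was 4.76, 4.76, 4.7, 4.75 and 4.76, and the median width lay between 458 and 483 bp. The Spearman correlation of value with the distance to the nearest gene was 0.01 across the 5254 peaks. Within the first 1000 bp outside the 5000 bp limit, 445 peaks had a median width of 458 bp and a median value of 4.66, and in the last 1000 bp inside it 532 peaks had 476 bp and 4.74.

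**Figure D3:**
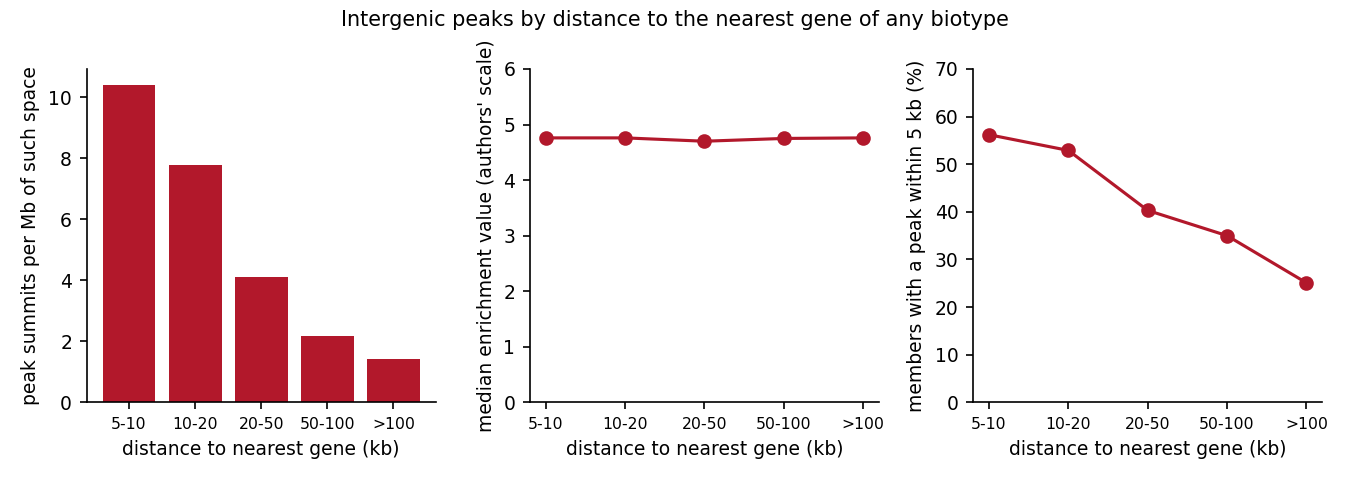
Intergenic peaks in 5 steps of distance to the nearest gene of any biotype (x axis, kb): peak summits per Mb of such space (left bars), median enrichment value (middle) and the percentage with another peak within 5 kb (right). Density is 10.4 per Mb in the nearest step and 1.43 in the farthest, the median value stays between 4.7 and 4.76, and the share with a neighbour is 56.2% and 25.1% at the ends.

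Chromosomes differed in density more than in strength. Members per Mb of intergenic space ranged between 2.32 on X and 8.33 on chromosome 19, with 7.3 on chromosome 11 and 6.11 on chromosome 10. The median value per chromosome lay between 4.49 and 4.98. X also had the largest intergenic share of its peaks, 20.1%, and chromosome 7 the smallest, 8.53%.

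In both replicates, the share of intergenic peaks with a close neighbour was below that of other peaks. The rule itself sets part of this difference. Members lie more than 5000 bp from every gene, so no peak wholly inside a gene can be within 5000 bp of one. How much of the difference remains without this limit was not tested. Another peak lay within 5000 bp for 47.9% of them, against 55.6% of peaks inside genes and 74.7% of all other peaks; over all 37541 peaks the share was 70.9%. Within a replicate's own set the intergenic share was 59.8% ± 0.896, and its difference from that of other peaks was -21.8 ± 2.73 percentage points (SD, n = 2). Of the 2515 members with a neighbour, 2340 neighboured another member, and 175 had only peaks nearer to genes beside them. Joining members at most 5000 bp apart gave 3903 runs, of which 2914 were single peaks, 743 pairs, 246 held at least 3 peaks and 23 at least 5. Members in runs of 2 or more did not differ much from lone ones, with a median width of 434 bp against 494 bp and a median value of 4.71 against 4.79.

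The largest runs held 7 peaks each, and there were 3 of them. The densest covered 5919 bp downstream of Klrb1c, a receptor gene of natural killer cells, and its strongest peak, 274 bp wide, had 15.4 in replicate 1 and 12.9 in replicate 2. Klrb1c itself had no marked 5' end. The second extended over 13659 bp downstream of Bahcc1, a BAH domain gene with a marked 5' end; its 2 strongest peaks had 12.9 in replicate 1 and 13.2 in replicate 2, and 11.2 in replicate 1 and 12.6 in replicate 2. The other 2 runs named held 6 peaks each, and were those with the highest values of 5 such runs. One lay 324506 bp downstream of Etaa1, a gene of replication stress signalling, whose strongest peak had 21.6 in replicate 1 and 14.1 in replicate 2. The other lay between Gm52006 and Actn1, a non-muscle α-actinin gene, with 12 in replicate 1 and 10.8 in replicate 2 at its strongest.

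The third run of 7 peaks spanned 15301 bp, chr8:84186666-84201966, between the miR-181c and miR-181d hairpins on one side and those of miR-23a, miR-27a and miR-24-2 on the other. The protein-coding genes that flank it are Nanos3, a germ cell gene with no marked 5' end, and Zswim4, whose 5' end was marked. The peak nearest to the miR-23a hairpin lay 6552 bp upstream of it, was 1091 bp wide and had 9.23 in replicate 1, 13.5 in replicate 2 and 11.3 in the replicated set. The strongest, 863 bp wide and 12900 bp upstream of miR-181c, had 10.4 in replicate 1, 13 in replicate 2 and 13.2 in the replicated set. Replicate 2 was higher at all 6 peaks of the run that both replicates had, and the seventh, with 6.91 in replicate 2, overlapped no peak of replicate 1.

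**Figure D4:**
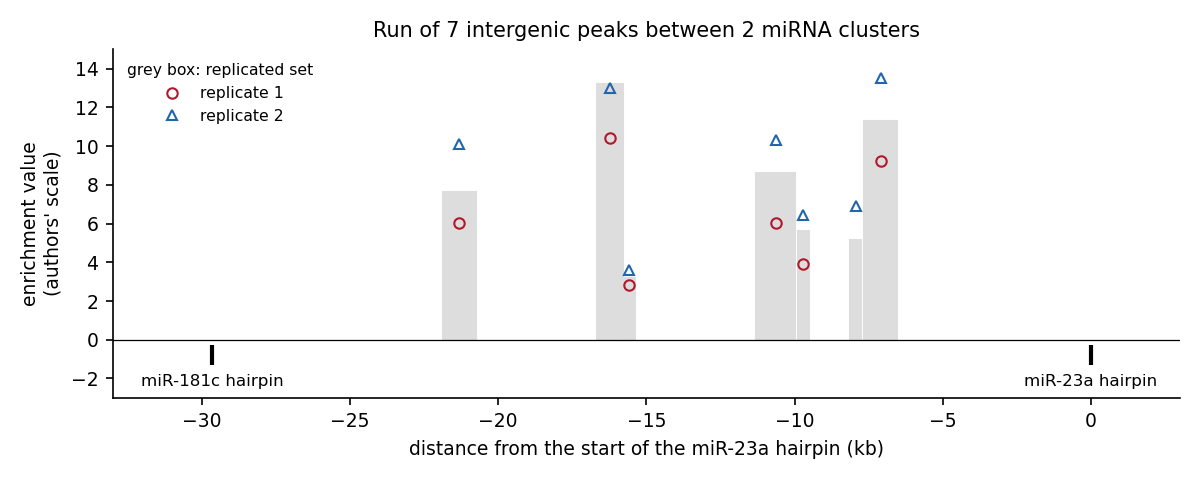
The run of 7 intergenic peaks between 2 miRNA clusters, by distance from the start of the miR-23a hairpin (x axis, kb) and enrichment value (y axis); grey boxes span each peak at its value in the replicated set, circles are replicate 1 and triangles replicate 2. The peak nearest to miR-23a has 9.23 in replicate 1 and 13.5 in replicate 2, and triangles lie above circles at every peak that has both.

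A miRNA was the nearest gene of any biotype for 38 intergenic peaks, 0.723% of members, where miRNAs made up 2.48% of all genes. They were nearest to 19 miRNA genes, with a median value of 5.21, and 6 of them (15.8%, interval 7.44% to 30.4%) had a value of at least 10, an interval that holds the 10.6% of all members. Where the annotation gave a strand, 18 lay upstream, of 6 miRNA genes, and 3 downstream, of 3 genes, so the members share few genes; 17 had no strand. At the let-7a-1 and let-7f-1 cluster of chromosome 13, 4 peaks lay upstream of let-7a-1, at 6421 to 13621 bp. The nearest of these had 14.9 in replicate 1, 13.1 in replicate 2 and 13.8 in the replicated set, and the farthest, 1199 bp wide, had 7.73 in replicate 1, 17.7 in replicate 2 and 15.5 in the replicated set. Upstream of Mir30d, a peak of 1994 bp at 19459 bp had 12.6 in replicate 1, 17.8 in replicate 2 and 13.1 in the replicated set. Upstream of Mir17, a miRNA of proliferating cells, 2 peaks had 5.71 and 2.63 in replicate 1, and 5.41 and 3.68 in replicate 2. The miRNAs were picked out after their values had been seen.

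The nearest annotated gene of any biotype was protein-coding for 2324 members (44.2%), a long noncoding RNA for 1626 (30.9%) and a pseudogene for 1025 (19.5%). Among all 49550 genes of any biotype, 21627 were protein-coding, a share close to the 44.2%. The shares of long noncoding RNAs and pseudogenes among all genes are not reported here. These biotype shares therefore do not set intergenic peaks apart. Members lay a median of 14524 bp from the nearest gene of any kind, and 26098 bp from the nearest protein-coding one (quartiles 11756 and 78472 bp). Within 50000 bp of a protein-coding gene were 66.2%, while 286 members (5.44%) were more than 500000 bp away and the most remote 1863375 bp. Upstream of their nearest protein-coding gene lay 2976 members and downstream 2251, 56.9% upstream (55.6% to 58.3%); 27 had a gene with no strand. The upstream share was above 50% in each of 5 distance steps, the lowest being 53.4% beyond 100000 bp.

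A larger share of the nearest genes was marked than of protein-coding genes at large. There were 2747 distinct nearest protein-coding genes, 12.7% of the 21627 on these chromosomes, and 1632 of them had a peak of both replicates within 1000 bp of a 5' end. That is 59.4% (57.6% to 61.2%), against 47.2% (46.5% to 47.9%) of the 18880 other protein-coding genes and 48.8% of all. By member, the nearest gene was marked for 70.4% of those 5000 to 10000 bp from it, 67.4% at 10000 to 20000 bp, 68.2% at 20000 to 50000 bp, 58.9% at 50000 to 100000 bp and 40.9% beyond.

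A single member was nearest to 1485 of these genes, while 152 genes had at least 5 and together held 966 members. Map3k1, a kinase of the stress-activated MAP kinase pathway, and Slitrk5, a synaptic membrane gene, had 13 each. At Map3k1 all 13 lay upstream, 75469 to 164957 bp away; the strongest, at 138810 bp, had 11.0 in replicate 1, 10.6 in replicate 2 and 11.6 in the replicated set, and the Map3k1 5' end was marked. At Slitrk5, unmarked at its 5' end, they were spread over both sides, 189366 to 1592353 bp away. The 11 members at Spcs3, a signal peptidase subunit gene, were packed 8021 to 55246 bp downstream, with 12.8 in replicate 1 and 12.5 in replicate 2 at the strongest. Atp2b1, a calcium pump gene, had 10, among them one 208826 bp upstream with 21.0 in replicate 1 and 18.6 in replicate 2. Zeb2 had 10 as well, including its wide peak and one 66852 bp upstream with 12.6 in replicate 1 and 15.2 in replicate 2.

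Kit, the stem cell factor receptor of early red cell precursors, also had 10 intergenic peaks although its own 5' end carried no peak of both replicates. Some of these peaks stood only 48 to 115 bp apart, so 10 peaks need not be 10 separate sites. In mouse blood cells Kit is known to be controlled by distant GATA factor sites and to be switched off as red cells mature. The strongest, 1129 bp wide on chr5:75512307-75513435 and 61552 bp upstream, had 12 in each replicate and 12.3 in the replicated set. Another 6 stood 113149 to 124253 bp upstream, the strongest of them with 8.22 in replicate 1, 6.71 in replicate 2 and 7.67 in the replicated set. On the downstream side, peaks 104691 and 105414 bp away had 5.31 and 5.86 in replicate 1 and 3.93 each in replicate 2, and 1 at 38370 bp had 3.16 in replicate 1 and 4.19 in replicate 2. The older mm9 set had intergenic peaks at 61492 and 122322 bp upstream of Kit and 104693 bp downstream.

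**Figure D5:**
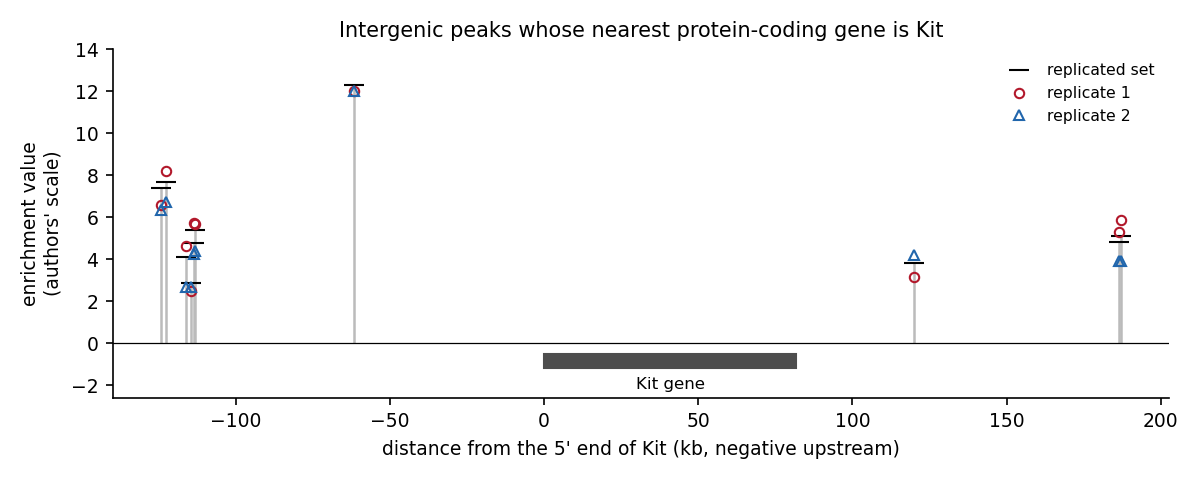
The 10 intergenic peaks nearest to Kit, by distance from its 5' end (x axis, kb, negative upstream) and enrichment value (y axis); dashes are the replicated set, circles replicate 1 and triangles replicate 2, and the dark bar is the gene. The peak at 61552 bp upstream has 12 in both replicates, and no other reaches 9 in either.

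Of 17 stem and progenitor genes, 8 (47.1%) were nearest to intergenic peaks, with 24 members in all, where 12.7% of all protein-coding genes were nearest to any. Of those 8 genes, 3 had a marked 5' end, where 59.4% of all nearest protein-coding genes did. Besides Kit, the 8 genes included Cd34, Meis1, Hlf, Erg, Hhex, Mecom and Mllt3, and the median value of the 24 members was 4.87. At Cd34, the surface marker of blood stem and progenitor cells, whose 5' end was unmarked, 1 peak 58464 bp upstream had 8.85 in replicate 1, 7.67 in replicate 2 and 8.64 in the replicated set. The older set had a peak 58453 bp upstream of Cd34, the window printed above. The lists hold few genes and were drawn up with earlier results of these data known, so their counts are descriptions. The 12.7% was not matched for the intergenic space around the genes of a list.

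Of 18 erythroid transcription factors 8 (44.4%) were nearest to 13 members, but these peaks were weak, with a median value of 3.63 against 4.76 over all members. All 8 had a marked 5' end, where 59.4% of all nearest protein-coding genes did. Myb, which keeps blood precursors dividing, had 2 peaks, 35859 and 32981 bp upstream, the first with 5.46 in replicate 1 and 2.93 in replicate 2. Bcl11a, the repressor of fetal globin genes, had 3 peaks in a row 166027 to 168424 bp downstream, the strongest with 6.05 in replicate 1 and 6.71 in replicate 2; the older set had 1 at 166524 bp. E2f2, a cell cycle factor of late red cell precursors, had a narrow peak 11686 bp upstream with 6.39 in replicate 1 and 7.54 in replicate 2. Bach1, a heme-sensing repressor, had 4.71 in replicate 1 and 6.02 in replicate 2 at 9350 bp upstream.

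Klf3, a repressor related to KLF1, had 4.61 in replicate 1 and 4.18 in replicate 2. Lmo2, the bridge of the GATA1 and TAL1 complex, had 2.37 in replicate 1 and 3.96 in replicate 2. The 3 peaks at Cbfa2t3, a corepressor gene, had at most 2.65 in replicate 1 and 3.52 in replicate 2. Sox6 had a peak in replicate 2 alone, with 2.86.

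Of heme synthesis and iron uptake genes 3 of 16 (18.8%) were nearest to an intergenic peak, of globin genes 1 of 10 (10%) and of red cell membrane genes 3 of 21 (14.3%), shares on both sides of the 12.7% of all protein-coding genes. The 3 of heme and iron were all marked at the 5' end, where 59.4% of all nearest protein-coding genes were. These 3 were Steap3, a ferrireductase (4.03 in replicate 1, 3.38 in replicate 2), Cpox, an enzyme of heme synthesis (3.59 and 3.32 in the same order), and Abcb10, a mitochondrial transporter (2.19 and 3.12). The globin gene was Hbb-y, the embryonic β-like globin, nearest to 3 peaks 5425 to 8704 bp upstream, on the side of the locus that holds its locus control region. The nearest of these had 5.04 in replicate 1 and 4.09 in replicate 2, the next had 3.41 and 2.36, and the farthest had 3.48 in replicate 1 and no peak in replicate 2. The 5' end of Hbb-y was unmarked.

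Car2 and Aqp1 were among the genes of the list named red cell membrane that were nearest to members. Car2, a carbonic anhydrase gene of red cells, had a peak of 1140 bp 5910 bp upstream, with 12.8 in replicate 1, 5.66 in replicate 2 and 12.6 in the replicated set, so the replicates were more than 2-fold apart. Aqp1, the water channel, had 4.51 in replicate 1 and 2.29 in replicate 2. Of 14 late maturation genes, Btg2 and Tent5c were nearest (14.3%), and the strongest peak, 108362 bp downstream of Tent5c, had 8.00 in replicate 1 and 9.41 in replicate 2.

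The lists of other blood cells and of the cell cycle lay on both sides of the 12.7% of all protein-coding genes. Nearest to a member were 2 of 16 megakaryocyte genes (12.5%), 1 of 19 granulocyte and macrophage genes (5.26%), 0 of 12 B cell genes, 4 of 16 T and NK cell genes (25%), 3 of 9 mast cell genes (33.3%) and 3 of 21 cell cycle genes (14.3%). Runx1, a blood stem cell and megakaryocyte factor, had a peak 205756 bp upstream with 10.1 in replicate 1 and 9.04 in replicate 2, and Fli1 had 6.18 and 5.41 at its strongest. Itgam, the myeloid integrin, had 5.97 in replicate 1 and 7.22 in replicate 2, and its 5' end was unmarked. Besides Klrb1c, Gata3, a T cell factor with a marked 5' end, had 12.3 in replicate 1 and 11.4 in replicate 2 at 6862 bp upstream.

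Mitf, a mast cell and pigment cell factor, had 11.8 in replicate 1 and 9.79 in replicate 2, and Cpa3, a mast cell protease, had 11.4 in replicate 1 and 6.76 in replicate 2. Of cell cycle genes, Ccnd2, cyclin D2, had 7.34 in replicate 1 and 12.5 in replicate 2 at 93510 bp upstream, and Mki67 had 4.92 and 7.46 at 6076 bp. Of 131 Hox, Sox, Pax, Fox and Tbx genes, 21 (16%) were nearest, against 12.7% of all protein-coding genes, led by Tbx4 (11.7 in replicate 1, 17.2 in replicate 2) and Pax9 (12.5 and 9.02). Of 1463 olfactory and vomeronasal receptor genes 33 were nearest, 2.26% against 12.7% of all protein-coding genes. None of the 33 was marked, where 48.8% of all protein-coding genes were. The share marked among all 1463 is not reported here, so this does not set the 33 apart from their families. Besides Vmn2r82, Olfr31 led with 10.5 in replicate 1 and 9.11 in replicate 2. Receptor genes of these families have close copies, and reads from copies could be placed on either.

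Known marker genes were checked against the labelled cell type. Over all protein-coding genes, 48.8% had a marked 5' end. Of 13 erythroid genes 12 had a marked 5' end, Gata1, Klf1, Nfe2, Tal1 and Alas2 among them; the exception was Hbb-bs, an adult β-globin gene with the near-identical copy Hbb-bt, which was marked. Of 7 genes of other blood cells 1 was marked, Ptprc. Spi1, Mpo, Csf1r, Pax5 and Cd3e were among those that were not. A peak of the replicated set lay within the span of 3 of the 7, Ptprc (highest value 23), Spi1 (11) and Pax5 (4.6). The same held for 12 of the 13 erythroid genes, all but Hba-a2. Their highest values ranged between 3.47 at Hbb-bs and 30.6 at Sptb.

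The older mm9 set, described with the same distance rule on the genes of that build, had fewer intergenic peaks and showed what DNA they stood on. There, 2524 of 15799 peaks were intergenic (16.0%), with a median width of 1084 bp, against 1120 bp inside genes and 2021 bp at 5' ends. The annotation of that build held 37252 genes on these chromosomes, against 49550 on mm10. Some peaks intergenic there may thus lie within 5000 bp of a gene by the mm10 annotation. In 300 bases around the summit, intergenic peaks had a median GC content of 46.3% and a median ratio of observed to expected CpG of 0.37, close to the 45.3% and 0.338 inside genes and below the 55% and 0.638 at 5' ends. Windows with at least 55% GC and a ratio of at least 0.6 were 117 of 2524 (4.64%, interval 3.88% to 5.53%), against 3.96% inside genes and 36.3% at 5' ends. The 117 were wider, with a median of 1382 bp against 1070 bp for the other intergenic peaks, had a higher median −log10 p, 21.3 against 7.51, and lay nearer to genes, a median of 16641 bp against 25764 bp from a protein-coding one.

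The share of windows with a GATA motif was higher under intergenic peaks than at 5' ends and that with a GC-rich motif lower, both close to the shares inside genes. Searched on both strands of the 300 bases, AGATAA was in 21.2% of intergenic windows, 24.7% of those inside genes, 8.96% of those at 5' ends, 13.4% of all peak windows and 11.2% of 32851 RefSeq promoter windows of the same length. TGATAA, which shares its last 5 letters with AGATAA but cannot be the same match, was in 15.6% of intergenic windows, 17.4% inside genes, 6.58% at 5' ends and 9.05% of RefSeq promoters. GGGCGG, the GC box of KLF and SP factors, was in 12.3% of intergenic windows, 10.7% inside genes, 31.1% at 5' ends, 24.7% of all peak windows and 35.7% of RefSeq promoters. The CACCC box CCACCC was in 21.1%, against 22.1% inside genes, 30.6% at 5' ends and 27.7% of all peak windows. CCGGAAG, an ETS motif, was in 3.33%, against 2.67% inside genes, 7.96% at 5' ends and 6.35% of all peak windows. Base composition moved with these shares, and its part in them was not tested. Among the 117 CpG-rich intergenic windows AGATAA was in 6.84% and GGGCGG in 45.3%.

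The stronger an intergenic peak was on mm10, the more often the older set had a counterpart. For 1263 of the 5254 members (24.0%, interval 22.9% to 25.2%) the older set held an intergenic peak on the same side of the same protein-coding gene at a distance within 1000 bp. The share was 9.31% for members with a value under 5, 35.8% for values of 5 to 10 and 59.7% for values of at least 10, and 63% for members at least 2000 bp wide. The nearest gene's symbol was absent from the older annotation for some members, which could have no counterpart: it was present for 4616 of the 5254. Both sets come from the same study, so the counterparts do not count as independent samples.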

How the data were processed

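H3K4me3 ChIP-seq of 2 biological replicates of DMSO-treated MEL cells was analysed as peak lists in narrowPeak format. Per the labels and the deposited notes on the files, the authors called peaks on mm10 in each replicate and in the pooled reads, and derived a replicated set from these; for the caller, its threshold and the replication rule, nothing is given in the sources used here. The authors' deposited lists hold, for every peak, a signal value (here the enrichment value, on a scale not stated), a −log10 p and a −log10 q. The deposited notes name 2 further files beside the alignments of each replicate and of the pool as input to peak calling, without saying what they hold; they were not analysed here. An older deposited set is on mm9. No read counts were used, so the depth per sample is unknown and no interval here covers sampling of reads.

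Positions were compared with the RefSeq GRCm38.p6 gene table (49550 genes of any biotype and 21627 protein-coding genes on chromosomes 1 to 19 and X), using Python 3.11.15, pandas 2.3.3, numpy 2.4.6 and scipy 1.17.1. That table has no strand, so 5' ends came from the RefSeq promoter table for 17273 protein-coding genes, from the strand in GENCODE M1 for 4044, and were taken as both ends for 310. These counts are for protein-coding genes. Peak classes used the 5' ends of genes of any biotype, found in the same way. Peaks at the 3' end of a gene with no strand may therefore be counted as at a 5' end. A gene was called marked when a peak of each replicate lay within 1000 bp of a 5' end. Members at most 5000 bp apart formed a run. The older set was compared with GENCODE M1 and the NCBIM37 sequence, in 300 bases around each summit. Of the 19 miRNA genes nearest to members, 16 had a mature sequence in the RefSeq table.

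Both replicates belong to 1 group, so no test between groups was possible, and shares have 95% Wilson intervals that cover counting error only; peaks of 1 run are not independent. The interval and distance routines were tested on simulated positions. The members and the 14 gene lists were chosen with earlier results of these data known. Named are the nearest protein-coding genes of the 10 highest and 10 widest members and of the 5 largest runs, the 5 genes nearest to most members, all nearest genes of the erythroid factor, heme and iron, globin and membrane lists, and the 2 with the highest values of each other list. Some genes that this rule names are not reported here. Kit and the miRNAs were described further after their values had been seen. Distances, quality limits, peak sets and overlap rules were varied.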

Additional observations from a re-analysis of the deposited data

Results flagged for a closer look

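The rule for intergenic peaks was applied to chromosomes 1 to 19 and X, so peaks elsewhere entered no comparison. In the replicated set, 9 peaks lay on Y, with a median enrichment value of 7.53 and a highest of 18.9, and 8 lay on unplaced or unlocalised sequence, with a median of 7.93 and a highest of 12. Y had 11 peaks in replicate 1 and 16 in replicate 2, and the unplaced sequence 12 in replicate 1 and 10 in replicate 2. They drew attention because they carry signal outside the chromosomes described; no control sample was analysed here.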

How the results depend on the processing

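Of 61 recomputed values, 18 stayed within the spread between replicates (counts within 1.5 times, the kept share within its interval) and 43 moved; no value has a test, so none gained or lost one. The count of 5254 was 8903 when only protein-coding genes were counted and 2524 in the older mm9 set, and ranged between 6946 and 7133 in the single replicates. The median width of 469 bp was 332 bp in the pooled set, 552 bp at a −log10 q of at least 5, 498 bp with protein-coding genes only and 618 bp with peaks joined over 1000 bp, and ranged between 280 and 305 bp with either replicate left out. The median enrichment value of 4.76 was 4 in the pooled set, 4.84 and 5.48 at a −log10 q of at least 2 and 5, 4.96 with protein-coding genes only, and ranged between 4.16 and 4.22 with either replicate left out. The share with a neighbour, 47.9%, was 52.1% and 43.9% at distances over 2500 and 10000 bp, 56.5% in the pooled set, 46.9% and 44.3% at a −log10 q of at least 2 and 5, 53.7% with protein-coding genes only, 36.3% and 68.8% at gaps of 1000 and 20000 bp, and ranged between 59.2% and 60.4% with either replicate left out. The kept share of 72.4% was 70.3% at over 10000 bp, 82.5% and 96.6% at a −log10 q of at least 2 and 5, and 74.1% with protein-coding genes only.

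The median distance to a protein-coding gene, 26098 bp, was 20532 and 38392 bp at over 2500 and 10000 bp, 28998 bp in the pooled set, 24724 bp at a −log10 q of at least 5, and ranged between 27140 and 27583 bp with either replicate left out. The share of nearest genes marked, 59.4%, was 60.6% and 55.3% at over 2500 and 10000 bp, 57.8% in the pooled set, 60.4% at a −log10 q of at least 5, 59.8% with protein-coding genes only, 60.6% with a window of 2000 bp (49.9% of all protein-coding genes) and 58.8% with stronger peaks at the gene (47.9%), and ranged between 58.4% and 58.7% with either replicate left out. Limits on −log10 q leave out weaker peaks, and the distance limits set the distances, by construction; the cause of the other moves was not tested. No paired analysis was possible because both replicates belong to 1 group. Depth is unknown, so a missing peak in a replicate says only that none was called there.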
